A study of Rattus norvegicus with 24 samples.

Results

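The inflammasome and interleukin 1 system was described in rat lung by 10 genes taken by name from the deposited count table, of 30043 genes in all. They are the ligands Il1b (gene identifier 24494), Il1a and Il18, the antagonist Il1rn, the receptors Il1r1, Il1r2 and Il1rap, and the inflammasome genes Nlrp3, Casp1 and Gsdmd. RNA from a piece of lung was sequenced in 24 male Fischer 344 rats, bought at 3 months of age and followed over 29 weeks in a whole-body inhalation chamber, with 6 rats in each of 4 groups. The combined group breathed cigarette smoke for 3 hours on 2 days a week, at 45 mg/m3 in week 1 and 80 mg/m3 later, and in week 3 breathed 15 mg/m3 of Min-U-Sil5 crystalline silica dust for 6 hours on each of 5 days in place of smoke. The silica group received the same silica week and otherwise air. The smoke group received the same smoke schedule, except that week 1 was at 40 mg/m3, and air in week 3. The air group received air throughout. The silica week lay early in the study, so the silica and combined lungs had months between the dust and the end of the schedule, and the smoke schedule ran to the last week. A whole piece of lung mixes epithelium, vessels, stroma and blood-borne cells.

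Interleukin 1 beta and interleukin 18 are made as inactive precursors. In the textbook scheme, priming through Toll-like or cytokine receptors raises Il1b and Nlrp3 transcripts, and a second stimulus such as phagocytosed crystals assembles NLRP3 with an adaptor and caspase 1, which cleaves the precursors and gasdermin D, the pore through which they leave the cell. Silica crystals are a classical NLRP3 stimulus in macrophages. Cleavage, release and pore formation happen on proteins, so transcript counts measure none of them.

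The sequences just before the start sites of the agonist pair and the antagonist are shown because Il1b and Il1rn were called in combined and in silica lungs against air while Il1a, the neighbour of Il1b in the gene order of rat chromosome 3, was called in no comparison. Each line gives 250 bases before the RefSeq start site (assembly GRCr8, 5′ to 3′ on the strand of the gene), with capitals for a match to any of 3 motifs searched on both strands.
Il1b, chr3:137036582-137036831, minus strand: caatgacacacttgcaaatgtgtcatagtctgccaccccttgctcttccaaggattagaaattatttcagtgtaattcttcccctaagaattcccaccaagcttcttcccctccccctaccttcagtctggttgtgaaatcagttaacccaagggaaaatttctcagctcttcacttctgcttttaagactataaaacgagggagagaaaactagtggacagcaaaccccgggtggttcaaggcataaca
Il1a, chr3:136990018-136990267, minus strand: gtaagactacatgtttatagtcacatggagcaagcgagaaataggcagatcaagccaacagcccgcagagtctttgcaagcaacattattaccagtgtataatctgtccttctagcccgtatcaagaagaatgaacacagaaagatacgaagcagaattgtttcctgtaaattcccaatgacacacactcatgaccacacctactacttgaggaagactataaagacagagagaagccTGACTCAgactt
Il1rn, chr3:27520072-27520321, plus strand: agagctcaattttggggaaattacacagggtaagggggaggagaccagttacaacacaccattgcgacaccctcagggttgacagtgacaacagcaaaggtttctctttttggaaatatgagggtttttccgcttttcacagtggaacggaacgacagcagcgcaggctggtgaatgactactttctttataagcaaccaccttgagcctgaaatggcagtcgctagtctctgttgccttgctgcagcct
The motifs were GGGA, any 4 bases and CC for NF-kB, TGANTCA for AP-1, and TTGC, any 2 bases and AA for C/EBP, searched over these 250 bases and the first 50 of the transcript. The capitals in Il1a are 1 AP-1 match, TGACTCA, at 12 to 6 bases before the start, and the printed Il1b and Il1rn windows hold none of the motifs. RefSeq gave 9 promoters for 8 of the 10 genes, with 2 overlapping ones for Il1rap. Both Il1rap promoters held the same 2 NF-kB matches, Il18 held 1 AP-1 match after its start, and Il1b held 1 C/EBP match, TTGTGCAA, after its start. Among 33469 promoters of the same length, 19.3% held the NF-kB letters, 7.33% the AP-1 letters and 10.6% the C/EBP letters, against 2, 2 and 1 of the 9 promoters here. A match describes letters only, and its absence says nothing of sites outside the bases searched. No link between these letters and the calls was tested.

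Depth was uneven, with 21629 counts in smoke 2, 280484 in silica 4 and 1084815 to 4687805 in the other 22 libraries. A count of 0 in smoke 2 allows up to 170.5 CPM (counts per 1000000 counts of the same library), the upper end of an exact 95% interval. That lies above the highest value of 9 of the 10 genes, so smoke 2 says little about them. Silica 1 and smoke 1 also stood apart from their groups. The library labelled silica 1 had summed neutrophil markers at 129 CPM, against 454 to 654 CPM in the other silica libraries, and the library labelled smoke 1 had them at 515 CPM, against 135 to 201 CPM in smoke 3 to 6. Labels were kept. Results that rest on silica 1, smoke 1 or smoke 2 are repeated with these left out, and they are called the 3 libraries here. Silica 1 and smoke 1 were singled out by inflammatory marker values, so repeats without them are not independent of the changes tested. Air 6 differed from the other air libraries by a chi-square over its degrees of freedom of 13.7 to 22.6, against 1.85 to 7.73 among those, and had a limma voom quality weight of 0.27. It was lowest of the air group in 5 of the 10 genes, and leaving it out with the 3 libraries was a further alternative. The 10 markers of lung epithelium, among them the surfactant genes, summed to 25196 to 29292 CPM in combined lungs, 24659 to 26989 CPM in silica 2 to 6, 16903 CPM in silica 1, 18133 to 22981 CPM in the smoke lungs other than smoke 2 and 16281 to 23323 CPM in air lungs. Genes were tested with edgeR's quasi-likelihood test over 13322 genes, and a gene was called at a Benjamini-Hochberg adjusted p under 0.05. All 10 genes were tested. Changes are log2 fold changes ± SE.

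The agonist Il1b, the antagonist Il1rn and the decoy Il1r2 rose after silica, alone or with smoke, while the signalling receptor chains, Il1a, Casp1 and Gsdmd were not called against air. In the combined group 5 of 10 genes were called higher than in air and 0 lower, where 22.4% of all tested genes were called. The 10 genes were chosen with earlier results of these data known, so no excess is read from such shares. In the silica group 3 of 10 were called higher than in air and 0 lower, where 3.17% of all tested genes were called, and the same 3 were called without the 3 libraries, where 11.8% of genes were. Il1r2, among the 5 and among the 3, passed the filter on low counts only through the groups in which it was high. Its having been tested and its rise are therefore not independent. In silica against air it was also called with no filter on counts (edgeR adjusted p = 0.00041), and it was not among the genes tested when those groups were fitted alone. In the smoke group 0 of 10 were called against air, where 0.150% of all genes were called. That 0 stands beside 5 of 10 at an unadjusted edgeR p under 0.05, which 1105 of all 13322 genes held. With DESeq2 0 of the 10 were called and with limma voom 1 (Gsdmd). The median log2 change of the 10 genes was 0.33 in combined, 0.26 in silica and 0.06 in smoke lungs, and that of all genes lay between -0.01 and 0.00.

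Il1b encodes interleukin 1 beta, the main secreted agonist of the family. It stood at 27.2, 32.1 and 38.5 CPM (lowest, median and highest library) in combined lungs, at 26.6, 35.9 and 53.5 CPM in silica lungs, at 0, 20.9 and 41.5 CPM in smoke lungs and at 11.5, 20.9 and 22.7 CPM in air lungs. All 6 combined and all 6 silica libraries lay above all 6 air libraries, and the smoke group overlapped air, with 0 counts in smoke 2 and 19.9 to 41.5 CPM in the other 5 libraries. Il1b was higher than air by 0.80 ± 0.17 in combined lungs (edgeR adjusted p = 0.00117) and by 0.91 ± 0.18 in silica lungs (edgeR adjusted p = 0.0043). The difference of smoke from air was 0.43 ± 0.18 (edgeR adjusted p = 0.5) and 0.15 without the 3 libraries (edgeR adjusted p = 0.838), since the high smoke value is smoke 1. Combined and silica lungs differed by -0.11 ± 0.17, which did not pass. In whole lung, more cells of a type and more RNA per cell cannot be told apart, here and in what follows.

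Il1a encodes interleukin 1 alpha, an agonist of the same receptor that is active as a precursor and acts as an alarmin of damaged cells. It stood at 12.8, 17.7 and 19.5 CPM in combined, 10.7, 20.3 and 24.3 CPM in silica, 0, 16.1 and 23.8 CPM in smoke and 12.4, 18.2 and 23.3 CPM in air lungs. The 4 groups overlapped. Its changes from air were -0.07 ± 0.16 in combined, 0.25 ± 0.16 in silica and 0.04 ± 0.17 in smoke lungs, and none was called (edgeR adjusted p = 0.868, 0.426 and 0.999). The signs for combined and smoke lungs turn when some single libraries are left out.

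Il1rn encodes the secreted receptor antagonist, which occupies the signalling receptor without activating it. It stood at 47.1, 57.5 and 81.7 CPM in combined lungs, at 15.9, 41.9 and 57.8 CPM in silica lungs, at 0, 20.9 and 53.6 CPM in smoke lungs and at 12.4, 18.1 and 25.5 CPM in air lungs. Every combined library lay above every air library, and the silica group overlapped air only through silica 1, the others standing at 35.7 CPM or more. The antagonist was higher than air by 1.75 ± 0.25 in combined lungs, a 3.35-fold difference (edgeR adjusted p = 1.34e-05), and by 1.19 ± 0.26 in silica lungs (edgeR adjusted p = 0.0116). It was also higher in combined than in smoke lungs, by 1.12 ± 0.25 (edgeR adjusted p = 0.00462), and all combined libraries lay above all smoke libraries once smoke 1, at 53.6 CPM, was left out with the other 2. The difference of combined from silica, 0.55 ± 0.24, was not called (edgeR adjusted p = 0.319). Smoke differed from air by 0.63 ± 0.28 (edgeR adjusted p = 0.530) and by 0.20 without the 3 libraries.

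**Figure D1:**
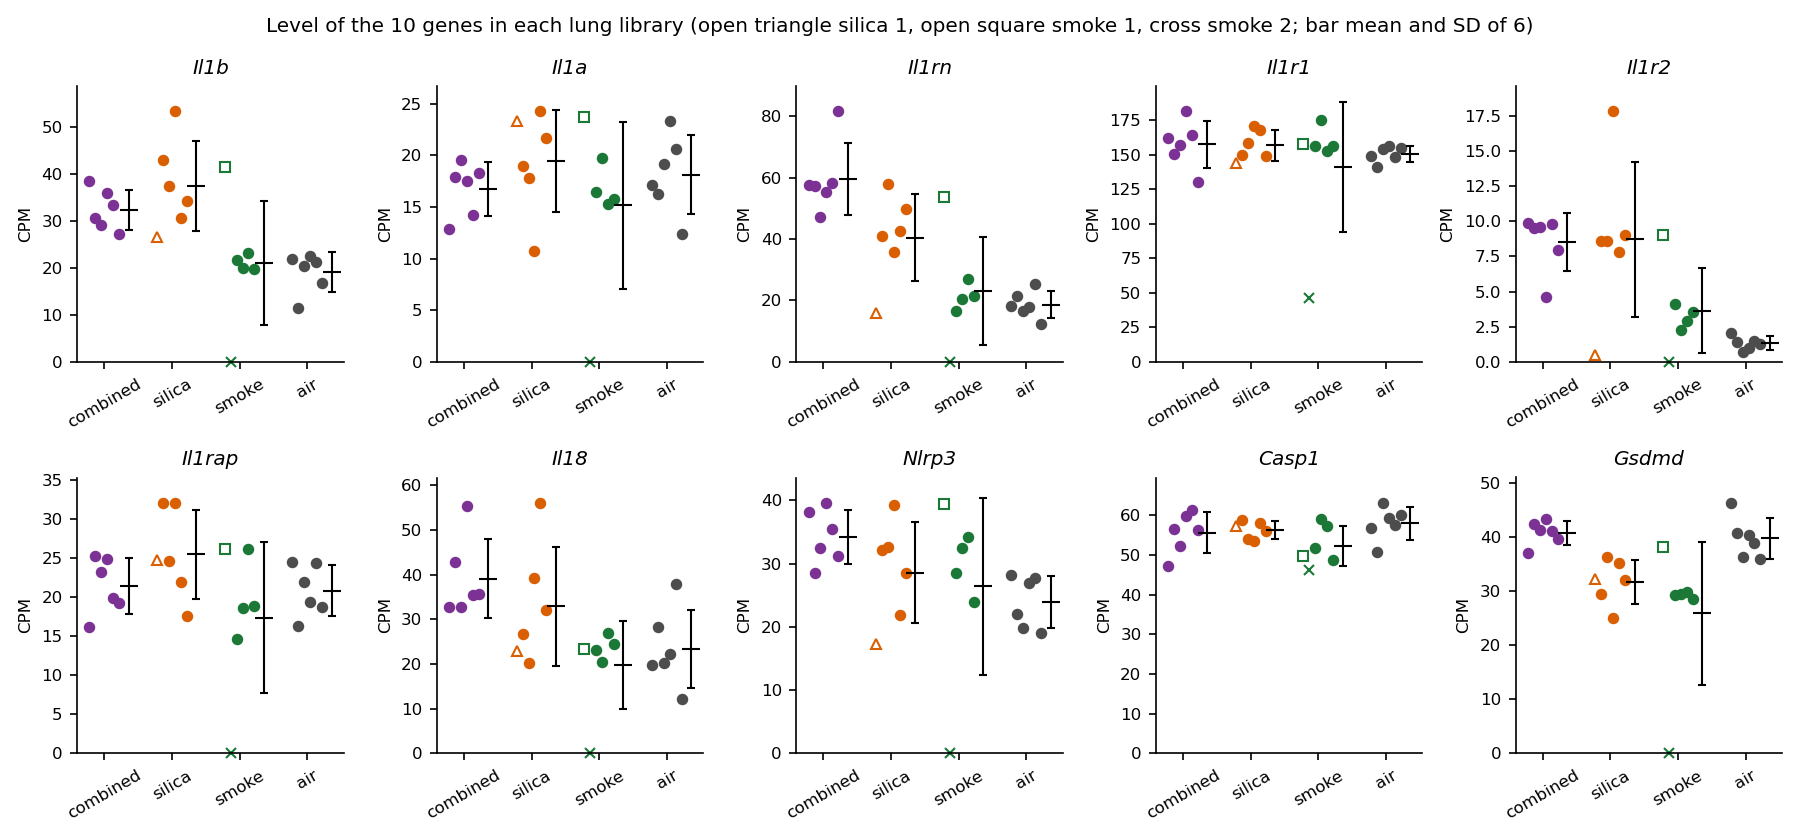
Level (y axis, CPM, linear, from 0) of the 10 genes in each library by group (x axis), with the mean and SD of the 6 libraries beside each group, open symbols for silica 1 and smoke 1 and a cross for smoke 2. Il1b in the combined and silica groups lies above all air libraries, whose highest value is 22.7 CPM, while Casp1 runs from 46.2 to 63.2 CPM with all groups overlapping.

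Il1r1 encodes the signalling receptor, and it was the steadiest receptor gene. It stood at 130, 160 and 182 CPM in combined, 144, 154 and 171 CPM in silica, 46.2, 156 and 175 CPM in smoke and 141, 152 and 157 CPM in air lungs. The lowest smoke value is smoke 2, which held 1 count. Against air it changed by 0.10 ± 0.08 in combined, 0.08 ± 0.08 in silica and 0.08 ± 0.08 in smoke lungs, none called. Il1rap, the accessory chain that completes the signalling complex, stood at 16.1, 21.6 and 25.2 CPM in combined, 17.6, 24.6 and 32.1 CPM in silica, 0, 18.7 and 26.2 CPM in smoke and 16.3, 20.6 and 24.5 CPM in air lungs. Its changes from air were 0.08 ± 0.15, 0.27 ± 0.16 and 0.00 ± 0.16 in combined, silica and smoke lungs, none called, and the groups overlapped.

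Il1r2 encodes the decoy receptor, which binds interleukin 1 but lacks a signalling domain, and is known from neutrophils and macrophages. Its counts were low, at 5 to 27 per library in the combined group, 1 to 26 in silica, 0 to 27 in smoke and 2 to 6 in air. In CPM it stood at 4.61, 9.54 and 9.90 in combined lungs, at 0.466, 8.60 and 17.8 in silica lungs, at 0, 3.24 and 9.04 in smoke lungs and at 0.684, 1.36 and 2.08 in air lungs. All combined libraries lay above all air libraries. Silica 1, with 1 count, lay below every air library, and the other 5 silica libraries stood at 7.80 CPM or more, above them all. It had the largest change of the 10 genes, higher than air by 2.79 ± 0.41 in combined (edgeR adjusted p = 2.2e-05) and by 2.51 ± 0.44 in silica lungs (edgeR adjusted p = 0.00179). For smoke the difference was 1.81 ± 0.47, not called (edgeR adjusted p = 0.183), though called without silica 1 (edgeR adjusted p = 0.0183), and 1.31 without the 3 libraries (edgeR adjusted p = 0.174). Without the 3 libraries the 4 smoke libraries, at 2.24 to 4.12 CPM, all lay above air, which 0.961% of all tested genes did.

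Il18 encodes interleukin 18, a second precursor cleaved by caspase 1, stored in epithelium and macrophages. It stood at 32.6, 35.5 and 55.3 CPM in combined lungs, at 20.3, 29.4 and 56.1 CPM in silica lungs, at 0, 23.3 and 26.9 CPM in smoke lungs and at 12.2, 21.3 and 37.8 CPM in air lungs. All combined libraries lay above all smoke libraries, as 3.72% of tested genes did, and air overlapped the combined group through air 5 alone. It was higher in combined lungs than in air by 0.78 ± 0.22 (edgeR adjusted p = 0.0121) and than in smoke by 0.74 ± 0.24 (edgeR adjusted p = 0.0377). The second difference was 0.66 to 0.80 whichever library was left out, and its edgeR adjusted p lay above 0.05, at 0.0578 to 0.0984, without any 1 of smoke 3, smoke 4, smoke 6, combined 2, combined 4 or combined 6. Silica lungs differed from air by 0.57 ± 0.23, not called (edgeR adjusted p = 0.177), but called without air 5 at 0.77 (edgeR adjusted p = 0.0421). Smoke lungs differed from air by 0.03 ± 0.25, a sign that turns without the 3 libraries and air 6. The summed epithelial markers were also above all air libraries in the combined group and in silica 2 to 6. One by one they were split, with 2 of the 10 called higher and 2 lower in combined lungs than in air. Their median log2 change was 0.01, so the sum does not stand for every marker. The part of these markers in the Il18 result was not tested.

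Nlrp3 encodes the crystal-responsive sensor and was called in 1 comparison. It stood at 28.5, 33.9 and 39.6 CPM in combined, 17.3, 30.3 and 39.2 CPM in silica, 0, 30.4 and 39.5 CPM in smoke and 19.0, 24.5 and 28.1 CPM in air lungs. All combined libraries lay above all air libraries, by a narrow gap, and the other groups overlapped air. The rise in combined lungs was 0.56 ± 0.15 (edgeR adjusted p = 0.00733), and with DESeq2 it was 0.55 and did not pass (DESeq2 adjusted p = 0.053). Silica alone differed by 0.21 ± 0.16 and smoke alone by 0.43 ± 0.16, neither called (edgeR adjusted p = 0.534 and 0.423). Together with Il1b, Il1rn and Il1r2, 4 of 10 genes had every combined library above every air library, where 5.37% of tested genes did. For silica and air this held for 1 of 10, Il1b, where 0.293% of tested genes did, and without the 3 libraries for 3 of 10, where 3.00% did.

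Casp1, the protease of the inflammasome, barely moved. It stood at 47.3, 56.6 and 61.5 CPM in combined, 53.5, 56.7 and 58.8 CPM in silica, 46.2, 50.8 and 59.2 CPM in smoke and 50.7, 58.5 and 63.2 CPM in air lungs. All groups overlapped, and its changes from air were -0.02 ± 0.08 in combined, 0.00 ± 0.07 in silica and -0.12 ± 0.08 in smoke lungs, none called.

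Gsdmd encodes gasdermin D, the pore-forming substrate of caspase 1, and its estimates lay below air in silica and smoke lungs but not in combined lungs. It stood at 37.0, 41.2 and 43.3 CPM in combined lungs, at 25.0, 32.1 and 36.3 CPM in silica lungs, at 0, 29.3 and 38.2 CPM in smoke lungs and at 35.8, 39.6 and 46.3 CPM in air lungs. Every combined library lay above every silica library, as 0.638% of tested genes did. Without the 3 libraries the smoke libraries spanned 28.5 to 29.8 CPM, all below air, as 1.09% of tested genes did. It was higher in combined than in smoke lungs by 0.42 ± 0.11 (edgeR adjusted p = 0.00967), a call lost with DESeq2 (0.41, DESeq2 adjusted p = 0.106). Against silica the combined group was higher by 0.33 ± 0.11, not called (edgeR adjusted p = 0.171). Against air, combined lungs differed by 0.09 ± 0.10, silica lungs by -0.24 ± 0.10 and smoke lungs by -0.34 ± 0.11, none called by edgeR (adjusted p = 0.572, 0.203 and 0.278). With limma voom the silica difference was -0.29 (limma adjusted p = 0.0423) and the smoke difference -0.41 (limma adjusted p = 0.0264), both called.

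**Figure D2:**
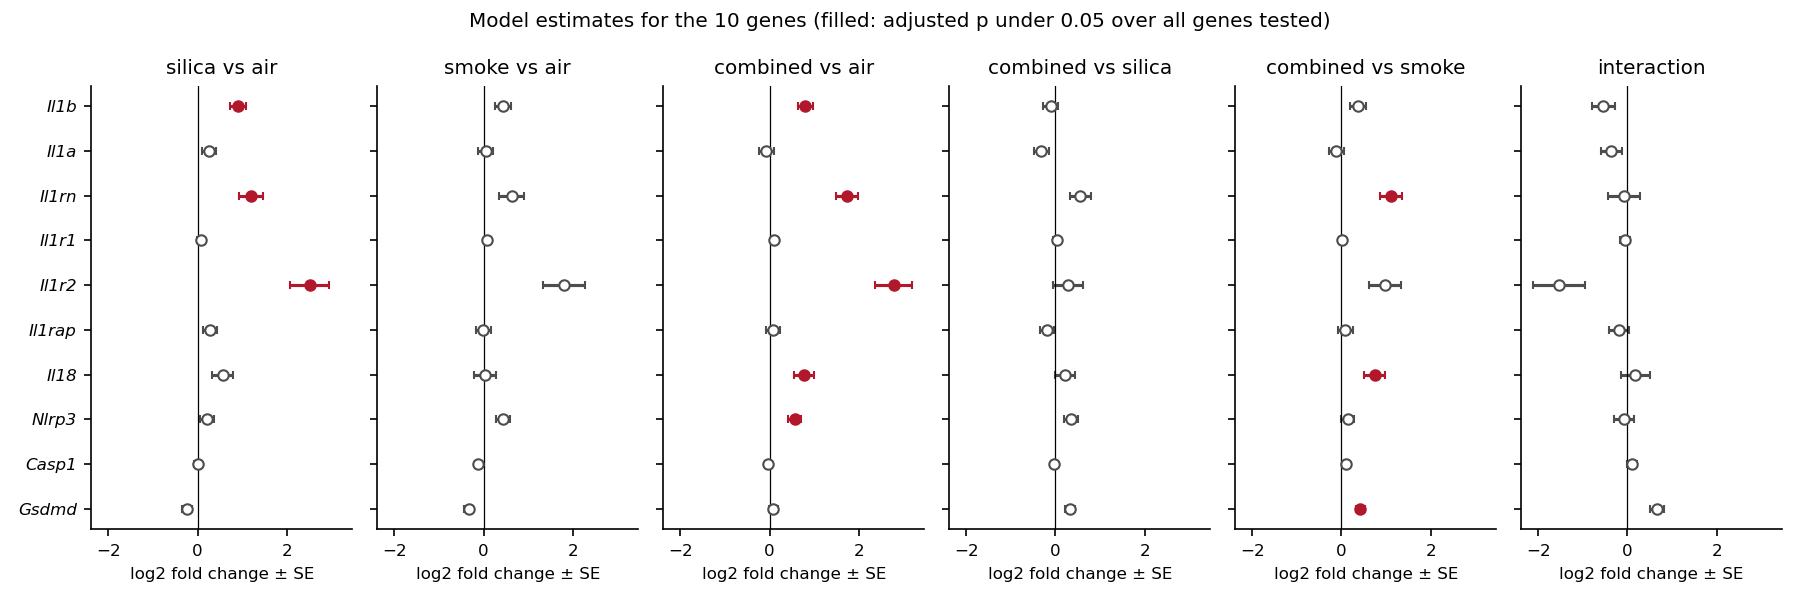
Log2 fold changes (x axis, ± SE) of the 10 genes (y axis), 1 panel per comparison, filled where the edgeR adjusted p is under 0.05. Il1r2 has the largest changes from air, 2.79 in combined and 2.51 in silica lungs, and no gene is called for smoke against air or combined against silica.

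Whether smoke changed what silica did was asked by setting the combined group beside each single exposure. Between combined and silica lungs 0 of 10 genes were called, where 0.248% of all genes were, with 0 called by DESeq2 and 0 by limma voom. An unadjusted edgeR p under 0.05 was held by 3 of the 10 (Gsdmd, Il1rn and Nlrp3) and by 1713 of all 13322 genes. Between combined and smoke lungs 3 of 10 were called higher (Il1rn, Il18 and Gsdmd) and 0 lower, where 12.9% of all genes were called. Without the 3 libraries 5 were called, where 20.1% of all genes were, with Il1b at 0.64 (edgeR adjusted p = 0.00359) and Il1r2 at 1.47 (edgeR adjusted p = 0.000333) added. Smoke 1 was the highest smoke library for Il1b and Il1r2, so these added calls are not independent of leaving it out. Leaving out smoke 1 alone gave the same count of 5. Those 5 genes were also the ones with all combined libraries above all remaining smoke libraries, where 7.75% of tested genes were. The interaction sets the log2 change under both exposures beside the added log2 changes under silica alone and smoke alone. It was called for 0 of 10 genes and for 0.00% of all genes. An unadjusted edgeR p under 0.05 was held by 977 of 13322 genes, and by 3 of the 10, with 0 of the 10 called by DESeq2 and 1 by limma voom. Gsdmd had the smallest p, at 0.66 ± 0.15 (unadjusted p = 0.000112, edgeR adjusted p = 0.214), and was called with limma voom at 0.74 (limma adjusted p = 0.0133). Il1b at -0.54 ± 0.25 and Il1r2 at -1.53 ± 0.58 (edgeR adjusted p = 0.663 and 0.601) were the other 2. The comparisons with air share the air libraries, and those with the combined group share its libraries.

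Antagonist over agonist was read within each library as Il1rn counts per Il1b count, a ratio that library scaling cannot move and that is compared only between groups. It was 1.5, 1.68 and 3.00 (lowest, median and highest) in combined lungs, 0.597, 1.18 and 1.54 in silica lungs, 0.759, 1.077 and 1.29 in the 5 smoke lungs with an Il1b count and 0.734, 0.817 and 1.88 in air lungs. The combined group lay above all smoke libraries and overlapped silica slightly and air through air 2. On the log2 scale the combined group was higher by 0.89 than air (exact two-sided permutation test of 6 against 6, adjusted p = 0.0216 over 10 ratio comparisons), by 0.82 than silica (exact permutation adjusted p = 0.0162) and by 0.81 than smoke (exact permutation adjusted p = 0.0108). Smoke 2 had 0 counts of both genes, so its log2 ratio of 0 in these tests is set by the 0.5 added to each count. Without smoke 2 the difference of combined from smoke was 0.80 (exact permutation adjusted p = 0.0108) and that of smoke from air 0.10 (exact permutation adjusted p = 0.815). The smallest unadjusted p this design allows is 0.00216. The difference from silica did not pass without combined 6 (0.67, exact permutation adjusted p = 0.0613). Silica alone moved the ratio by 0.08 and smoke alone by 0.09, with exact permutation adjusted p of 0.823 and 0.815. The log2 ratio averaged 0.04 ± 0.59 in silica and -0.03 ± 0.52 in air lungs (SD, n = 6 each), a spread wide beside that difference.

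Decoy over signalling receptor was read as Il1r2 counts per Il1r1 count. It was 0.0254, 0.0609 and 0.0633 in combined lungs, 0.00324, 0.0558 and 0.104 in silica lungs, 0, 0.0209 and 0.0572 in smoke lungs and 0.00444, 0.00918 and 0.0139 in air lungs. All combined libraries lay above all air libraries, and silica lungs did so apart from silica 1. The log2 ratio, with 0.5 added to each count, was higher than air by 2.51 in combined (exact permutation adjusted p = 0.0108), 2.12 in silica (exact permutation adjusted p = 0.0253) and 2.05 in smoke lungs (exact permutation adjusted p = 0.0144). Il1r1 was called in no comparison, so the ratio largely follows Il1r2. That gene was not called in smoke against air over all genes (edgeR adjusted p = 0.183), whereas the ratios were adjusted over 10 comparisons only. In smoke 2 the ratio rests on counts of 0 and 1. Without smoke 2 the difference of smoke from air was 1.43 (exact permutation adjusted p = 0.0162), and without the 3 libraries it was 1.14 (exact permutation adjusted p = 0.0272). The silica call was lost, at adjusted p of 0.0505 to 0.0613, without any 1 of silica 2 to silica 6, and was 2.75 (exact permutation adjusted p = 0.00722) without silica 1. Combined lungs differed from smoke by 0.46, not called (exact permutation adjusted p = 0.782). Without smoke 2 alone the difference was 1.08 (exact permutation adjusted p = 0.0247), and without the 3 libraries 1.37 (exact permutation adjusted p = 0.0119).

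**Figure D3:**
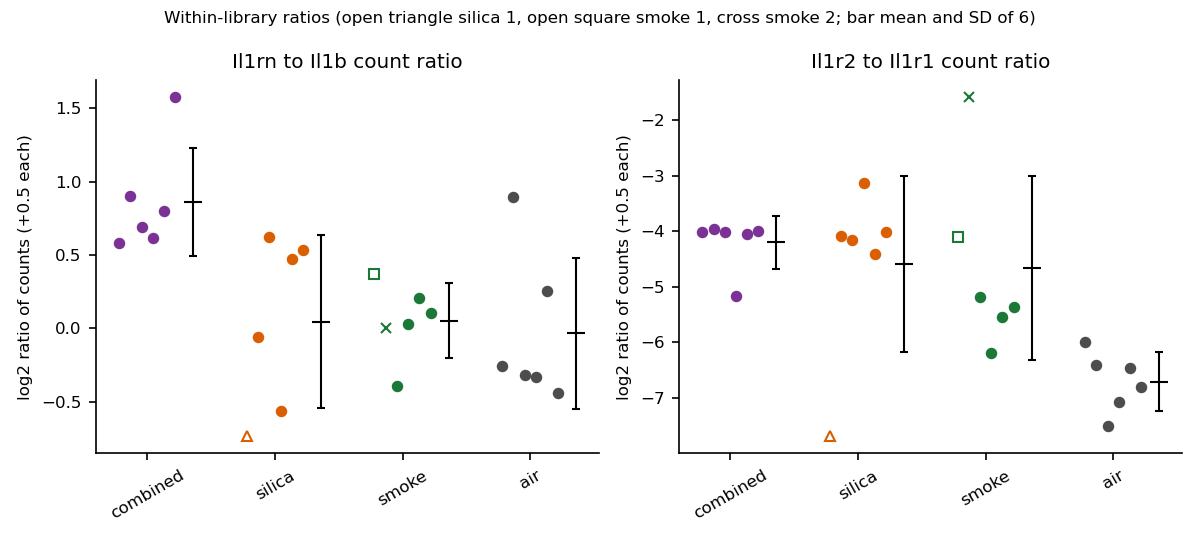
Il1rn counts per Il1b count and Il1r2 counts per Il1r1 count in each library, as log2 values (y axis, 0.5 added to each count) by group (x axis), with the mean and SD beside each group, open symbols for silica 1 and smoke 1 and a cross for smoke 2. Combined lungs are highest for antagonist over agonist, at a median ratio of 1.68 against 0.817 in air, and the decoy ratio lies above air in combined lungs and in all silica libraries but silica 1.

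The rest of the pathway was read from lists of related genes. Of 17 other inflammasome and pyroptosis genes 14 were tested, and of these 6 were higher in combined lungs than in air, 0 were lower and 8 were not called, where 22.4% of all tested genes were called in either direction, with a median of 0.27 against -0.01 for all genes. They were Naip6 (0.77 ± 0.18), which in mice binds bacterial proteins for the NLRC4 inflammasome, Nlrc4 itself (0.53 ± 0.14), Ninj1 (0.57 ± 0.16), which ruptures the membrane of dying cells, Nek7 (0.30 ± 0.09), the kinase that binds NLRP3, Casp4 (0.38 ± 0.13), the protease that binds lipopolysaccharide inside cells, and Nlrp12 (0.63 ± 0.21), with edgeR adjusted p from 0.00231 for Naip6 to 0.041 for Casp4. Casp4, which lies beside Casp1 in the gene order, thus passed where Casp1 did not. Pycard, the adaptor, stood at 0.16 ± 0.18, and the most abundant gene of the list, Txnip, at -0.33 ± 0.16, neither called. In silica and smoke lungs 0 of the 14 were called by edgeR, where 3.17% and 0.150% of all genes were. Without the 3 libraries 3 were higher in silica, where 11.8% of all genes were called.

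Upstream of the sensor, 4 of 6 tested priming genes (7 listed) were higher in combined lungs than in air and 0 lower, against the same 22.4% of all genes. They were the lipopolysaccharide co-receptor Cd14 (0.93 ± 0.17), the Toll-like receptor Tlr2 (0.91 ± 0.20), Ly96, the partner of TLR4 (0.70 ± 0.24), and the tumour necrosis factor receptor Tnfrsf1b (0.40 ± 0.09), while Tlr4 itself stood at 0.06 ± 0.11. Downstream of the receptor, 1 of 17 signalling genes was higher, the adaptor Myd88 (0.62 ± 0.12, edgeR adjusted p = 0.000512), and 1 lower, the NF-kB inhibitor Nfkbia (-0.57 ± 0.17, edgeR adjusted p = 0.0181), itself an NF-kB target, and these 2 of 17 are a smaller share than the 22.4% of all genes called. Of 12 further family ligands and receptors 7 were tested, and of these 1 was lower and 0 higher, again no larger a share than among all genes. That was Il33, an alarmin held in the nucleus, at -0.39 ± 0.12 against air (edgeR adjusted p = 0.0161) and -0.50 ± 0.12 against smoke (edgeR adjusted p = 0.00797), with 183 to 317 CPM in combined and 311 to 392 CPM in air lungs. All 7 endothelial and fibroblast markers were also lower in combined lungs than in air, summing to 2430 to 2628 CPM in combined lungs against 3371 to 3678 CPM in air 1 to 5 and 8226 CPM in air 6. Without air 6, 5 of the 7 were lower and Il33 stood at -0.41 (edgeR adjusted p = 0.0133). The part of these markers in the Il33 result was not tested.

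Genes that interleukin 1 is known to induce held the largest changes of these pathway lists. Of 18 listed 11 were tested, and 4 were higher than air in combined and 4 in silica lungs, with 0 lower, and 1 was higher in smoke lungs. Of all genes 22.4% were called in combined, 3.17% in silica and 0.150% in smoke lungs. Genes low in air, such as Ccl2 at 1 to 14 counts per air library, could pass the filter through the exposed groups. Having been tested and being called higher are therefore not independent in this list. Ccl2, a monocyte attractant, stood at 45.0, 62.7 and 72.1 CPM in combined, 3.26, 36.7 and 49.8 CPM in silica, 1.86, 7.20 and 46.2 CPM in smoke and 0.521, 2.11 and 5.25 CPM in air lungs. The highest smoke value is 1 count in smoke 2, and smoke 1 stood at 36.8 CPM and smoke 3 to 6 at 1.86 to 7.27 CPM. Ccl2 was higher than air by 4.59 ± 0.50 in combined and 3.75 ± 0.54 in silica lungs, and Ccl7 by 4.41 ± 0.47 and 3.42 ± 0.52. Zc3h12a, an RNase that degrades cytokine transcripts, was higher in all 3, by 0.96 ± 0.20 in combined, 1.16 ± 0.20 in silica and 0.98 ± 0.20 in smoke lungs (edgeR adjusted p = 0.000739, 0.00151 and 0.0375). The neutrophil attractant Cxcl1 was higher in silica lungs by 1.24 ± 0.26 (edgeR adjusted p = 0.00954) but stood at 0.41 ± 0.27, not called, in combined lungs, with -0.83 ± 0.26 between combined and silica lungs (edgeR adjusted p = 0.168). Cxcl3 was higher in combined lungs by 0.71 ± 0.20 (edgeR adjusted p = 0.00975). Other signals induce these genes too.

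**Figure D4:**
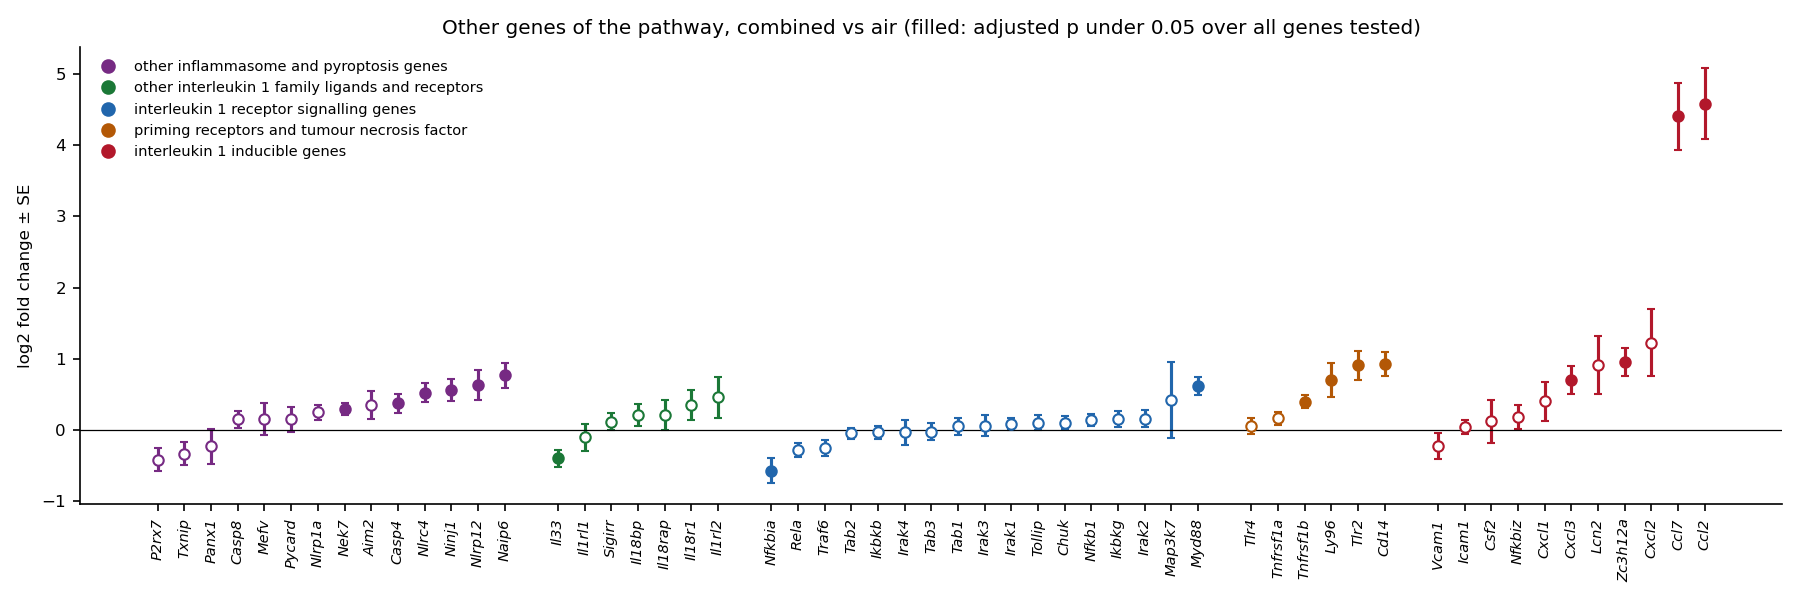
Log2 fold changes of combined over air (y axis, ± SE) for the tested genes of the pathway lists (x axis, coloured by list, in order of change), filled where the edgeR adjusted p is under 0.05. Ccl2 and Ccl7 lie highest, at 4.59 and 4.41, and Il33 and Nfkbia are the filled points under 0.

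Some markers of inflammatory cells moved with these genes, and others did not. Of 5 tested neutrophil markers, 4 were higher in combined and 3 in silica lungs than in air, where 22.4% and 3.17% of all genes were called. Among them was S100a9, the most abundant of the list, at 3.35 ± 0.40 and 2.88 ± 0.40. The median log2 change over the 5 markers was 0.805 and 0.788. Here too, passing the filter and being called higher are not independent for markers low in air. The 10 markers summed to 368 to 827 CPM in combined, 129 to 654 CPM in silica, 135 to 201 CPM in smoke 3 to 6 and 85.4 to 156 CPM in air lungs, with smoke 1 at 515 CPM and smoke 2 at 555 CPM. The granule gene Mpo was at 0 in all combined, silica and smoke libraries, and Elane was at 0 in silica. What these 0 counts mean for the number of neutrophils was not tested. Of 9 tested macrophage markers, 4 were higher and 1 lower in combined lungs than in air, and 2 were higher in silica lungs. Siglec1 stood at 1.47 ± 0.18 and 0.86 ± 0.19. In smoke lungs 1 was called, Cd163, which was lower, and Cd163 was also called in combined lungs. Of all genes 22.4%, 3.17% and 0.150% were called in combined, silica and smoke lungs. The estimate lay above 0 in combined lungs for 6 of the 9 markers, with a median log2 change of 0.235. The sum that follows therefore does not stand for every marker. The 10 macrophage markers summed to 29764 to 35705 CPM in combined, 14147 to 32219 CPM in silica, 15481 to 18662 CPM in smoke 3 to 6 and 9788 to 21787 CPM in air lungs, with smoke 1 at 25500 CPM, smoke 2 at 3144 CPM and Marco at 0 in air. Silica 1, lowest of the silica group in 5 of the 10 genes, had the lowest sum of both lists in that group, and smoke 1, highest of the smoke group in 6 of the 10, had the highest macrophage sum. The part of these cells in the changes of Il1b, Il1rn, Il1r2, Il18 and Nlrp3 was not tested.

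**Figure D5:**
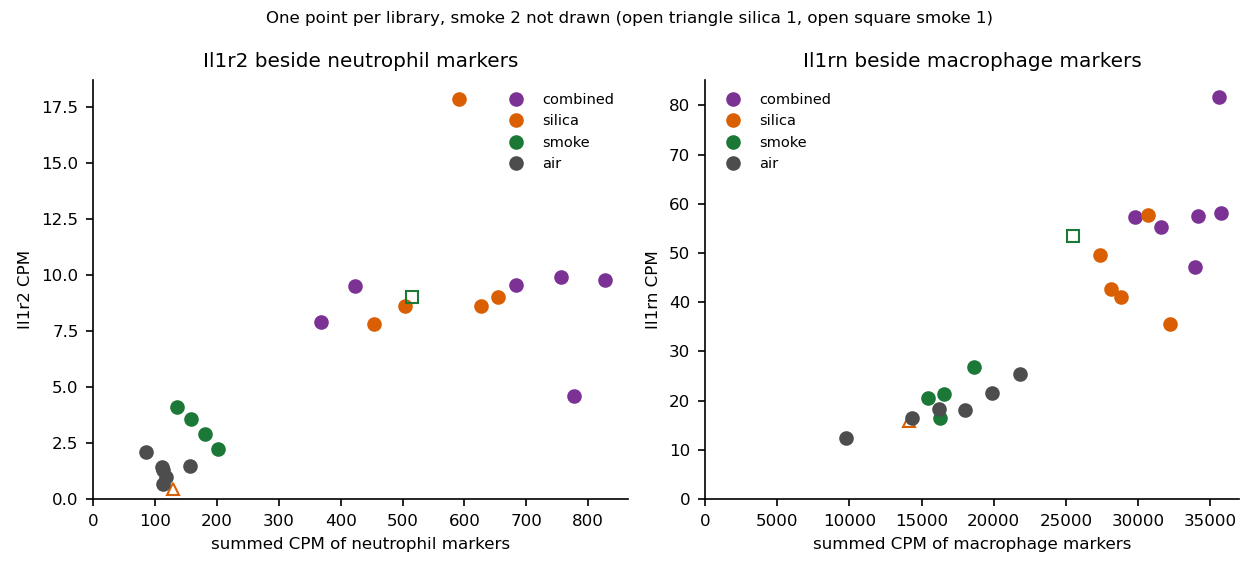
Il1r2 against the summed neutrophil markers and Il1rn against the summed macrophage markers, both axes in CPM, 1 point per library coloured by group, with silica 1 as an open triangle, smoke 1 as an open square and smoke 2 not drawn. Silica 1 lies below every air library at 0.466 CPM Il1r2 and within the air range at 15.9 CPM Il1rn. Smoke 1 lies among or beside the silica and combined libraries at 9.04 and 53.6 CPM.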

How the data were processed

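The authors deposited unnormalized whole counts of reads per gene in 1 table with a column per library. Libraries came from total RNA depleted of ribosomal RNA with a stranded kit, per the labels' protocols. The submitters' processing notes name HTSeq 0.11.2, SAMtools 1.8, HISAT2 2.1.0, Trimmomatic 0.35, bcl2fastq 2.19 and Cufflinks. The genome build, annotation and strand setting of the counting, not given in the sources used here, leave reads of overlapping genes uncertain. Of 30069 lines, 26 repeated another line and were dropped.

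The test was edgeR 4.0.16 in R 4.3.3, with filterByExpr at a minimum count of 10, TMM scaling and 1 quasi-likelihood model of 4 group means over all 24 libraries (20 residual degrees of freedom). Tests were two-sided, with Benjamini-Hochberg adjustment over all 13322 genes, and the SE is the absolute log2 fold change over the root of the F statistic. The code was tested on simulated data. Alternatives were RLE scaling, no filter, DESeq2 1.42.0, limma 3.58.1 voom with quality weights, the groups compared only, and libraries left out. CPM use each library's own total. Ratios within a library took exact permutation tests. No 2 libraries of a group agreed within sampling noise (lowest chi-square over its degrees of freedom 1.73), and each was counted as a separate rat per the labels. Replicate numbers follow deposit order.

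The 10 genes and the lists of other genes were chosen with earlier results of these data known. All 10 were named. Of each other pathway list up to 4 called genes per comparison with the smallest p were named, with the most abundant gene. This was not done for the marker lists, whose other called genes were counted but not named. Their named genes were S100a9, Siglec1 and Cd163, with Mpo, Elane and Marco, which were at 0 in some groups. Casp4, Nlrp12 and Pycard were named after their values were seen. Of 139 listed genes 138 were found, and Ccr2 was not analysed here. Monocyte and T and B cell markers had 0 calls in every comparison (edgeR), but 1 of 5 monocyte markers was higher in silica lungs than in air without the 3 libraries, and without these and air 6, counts added after seeing the data, 2 were higher in combined and 3 in silica lungs. Erythroid genes had 2 higher in smoke than in air, where smoke 2 held 44.1% haemoglobin counts. Epithelial markers had 2 higher and 2 lower in combined lungs than in air.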

Additional observations from a re-analysis of the deposited data

Results flagged for a closer look

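Of 48 groups of 6 libraries screened for 1 value far from the others, 9 held one, where chance flags about 1 in 20 groups. In the smoke group, smoke 2 stood apart with 0 CPM of Il1a, 0 CPM of Il18, 0 CPM of Gsdmd and 46.2 CPM of Il1r1, which was 1 count. In the combined group, combined 6 had 81.7 CPM of Il1rn, against 47.1 to 58.2 CPM in the others, and a log2 ratio of Il1rn to Il1b counts of 1.58, the highest of the group. Combined 4 had 4.61 CPM of Il1r2, which was 5 counts, against 7.92 to 9.90 CPM in the others, and a log2 ratio of Il1r2 to Il1r1 counts of -5.17, the lowest of the group. Silica 1 had a log2 ratio of Il1r2 to Il1r1 counts of -7.69, from 1 count of Il1r2. The 9 values come from 4 libraries.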

How the results depend on the processing

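Of the 11 called results, 10 held whichever of the 24 libraries was left out (Il18, combined against smoke, did not), and 8 held under every other alternative that gave an adjusted p, which for Il1r2 in silica against air were 5 of 7. DESeq2 lost Il18 (0.75, adjusted p = 0.057) and Gsdmd in combined against smoke and Nlrp3 in combined against air, and gave Il1r2 in silica against air no adjusted p, and the compared groups alone did not test that gene. Genes called of the 10 for combined against smoke numbered 3, but 1 with DESeq2, 5 with limma voom, 5 without the 3 libraries (silica 1, smoke 1 and smoke 2), 5 without these and air 6, and 2 to 5 without single libraries. For smoke against air they numbered 0, but 1 with limma voom, 1 without the 4 libraries and 0 to 1 without single libraries (Il1r2 without silica 1). For the interaction they numbered 0, but 1 with limma voom and 1 without the 4 libraries, Gsdmd in each case.

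Over all genes, silica against air called 422, but 177 with DESeq2, 909 with limma voom, 91 with the compared groups only, 1614 without the 3 libraries, 1541 without the 4 and 124 to 1183 without single libraries. Smoke against air called 20, but 72 with limma voom, 5 with the compared groups only, 98 without the 4 libraries and 6 to 42 without single libraries. Combined against air called 2987, but 1665 with DESeq2. Combined against silica called 33, but 116 with limma voom, 100 with the compared groups only, 111 without the 4 libraries and 16 to 113 without single libraries. Combined against smoke called 1720, but 834 with DESeq2, 3368 with limma voom, 2751 without the 3 libraries, 3402 without the 4 and 905 to 2271 without single libraries. The interaction called 0, but 1 with DESeq2, 9 with limma voom and 19 without the 4 libraries. The cause was not tested.

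Signs of small uncalled log2 changes turned. Under limma voom, Il1a (-0.099) and Il18 (-0.020) in smoke against air and Il1rn (0.174) in the interaction did. Without the 3 libraries the following turned: Il1a (-0.072) in smoke against air, Il1rn (0.159) in the interaction, Il1r1 (-0.006) and Il1r2 (-0.017) in combined against silica, and Il1r1 (-0.010) in combined against smoke. Without the 4 libraries Il1a (-0.196) and Il18 (-0.139) in smoke against air, Il1a (0.005) in combined against smoke, Il1rn (0.295) in the interaction and Il1r1 (-0.009) in combined against silica did. Casp1 in silica against air was -0.019 with RLE, -0.006 without the filter, -0.018 with DESeq2 and -0.006 without the 3 libraries. Leaving out single libraries gave ranges across 0 for Casp1 (-0.049 to 0.031 in combined against air, -0.054 to 0.027 in combined against silica, -0.022 to 0.019 in silica against air), Il18 (-0.026 to 0.516 in the interaction, -0.141 to 0.241 in smoke against air) and Il1a (-0.191 to 0.018 in combined against air, -0.166 to 0.017 in combined against smoke, -0.078 to 0.130 in smoke against air). The same held for Il1r1 (-0.010 to 0.069 in combined against silica, -0.013 to 0.062 in combined against smoke), Il1r2 (-0.014 to 0.362 in combined against silica), Il1rap (-0.020 to 0.209 in combined against smoke, -0.121 to 0.108 in smoke against air), Il1rn (-0.276 to 0.364) and Nlrp3 (-0.193 to 0.034) in the interaction.

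For the ratio of Il1r2 to Il1r1, combined against smoke was 1.371 and passed without the 3 libraries. It was 0.159 to 1.078 without single libraries, and passed only without smoke 2 (1.078). Combined against silica was -0.238 without the 3 libraries and -0.238 to 0.672 without single libraries, and silica against air was 1.835 to 2.745. For Il1rn to Il1b, combined against silica was 0.659 to 0.931 and silica against air -0.037 to 0.264. Pseudocounts of 0.1 and 1 changed no call of either ratio. No paired analysis was possible because the replicate numbers are only names in deposit order and the rats of different groups are separate. Low depth limits Il1r2 most, and smoke 2 for all 10 genes.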
